A study of Mus musculus with 15 samples.

Results

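The genes described here serve protein import into mitochondria, folding and proteolysis inside them, the fusion and fission of the organelle, and the upkeep of its DNA. They were the rows of the deposited count table whose symbol begins with Tomm or Timm, together with 20 genes named by symbol, and 41 of the 13602 genes in the table met this rule. The rule used names only and no measured value. Of the 41 members, 40 passed the low-count filter and were tested. Tomm6, a small subunit of the outer-membrane import pore, did not pass the filter, with levels between 0 and 0.489 CPM (counts per adjusted library total) in the 15 libraries.

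Most mitochondrial proteins are encoded in the nucleus, made in the cytosol and brought in through the TOM pore of the outer membrane. Proteins with a cleavable presequence then pass the TIM23 complex of the inner membrane and are pulled in by the matrix chaperone Hspa9, whereas carrier proteins are escorted by small Tim chaperones to the TIM22 complex. Inside, Hspd1 and Hspe1 fold new proteins and Lonp1 and the Clpp/Clpx protease remove damaged ones. In skeletal muscle, fusion by mitofusins and Opa1 and fission by Dnm1l shape the mitochondrial network between the myofibrils.

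The tissue was gastrocnemius, a mainly fast-twitch calf muscle, of male mice. The knockout group lacked Cpt1b, the muscle carnitine palmitoyltransferase through which long-chain fatty acids enter mitochondria, in skeletal muscle only (7 libraries), and the control group was wild type with the floxed gene (8 libraries). According to titles and protocol the mice ate chow for 12 to 14 weeks, but 45% HFD is entered as the diet of all 15 samples. The labels give neither the Cre driver, the strain nor the age at the start of feeding, and they count as many mice as libraries. Libraries were made by SAGE, which counts a transcript by 1 short tag close to its 3' end, so a level does not scale with transcript length. Levels below are CPM (tag counts scaled to the TMM-adjusted library total), given as lowest, median and highest library of a group. A fold change is given as the log2 difference between knockout and control, positive where knockout is higher. The value after its ± is a standard error derived from edgeR's quasi-likelihood F statistic, from which the 95% intervals were built. Adjusted p-values are over all 11062 genes tested, with 0.05 as the threshold.

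Library totals ran from 8334436 to 19397255 tags. Cpt1b itself stood at 4.44, 6.51 and 13.1 CPM in controls and at 1.10, 3.83 and 6.46 CPM in knockouts, so the groups overlapped (log2 -1.03 ± 0.31, edgeR adjusted p = 0.103, two-sided exact permutation p = 0.00389 on log2 CPM). A 3' tag can lie outside the deleted part of the gene, and the labels do not say which part that is. Control 7 and knockout 4 stood apart from the other libraries. They had the highest scores of their groups on the leading principal component of all tested genes (51.2 and 76.2, 44.6% of the variance) and the highest totals of their groups (16238258 and 19397255 tags). All 8 skeletal muscle fibre markers listed were present, and their summed level ran from 43770 to 61520 CPM in controls and from 37880 to 72730 CPM in knockouts, where knockout 4 was the highest. Of these 8, Mb was called higher and Tnnt3 lower.

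The tags counted for these genes can be predicted from the annotation as the 27 bases from the CATG site nearest the 3' end, the usual SAGE anchoring site (capitals). The labels do not name the enzyme. Tags were predicted for 39 members from their principal GENCODE M21 transcripts. The first 4 below belong to members described next that have the same predicted tag in all their coding transcripts. The tag of Timm23 is shown because it is also the predicted tag of another annotated gene, Gm10273, so that counts of this tag cannot be assigned to 1 of the 2. The 3 coding transcripts of Timm23 have 3 distinct predicted tags.
Timm10: CATGtgaaacctgtcatacttaggccc
Timm8a1: CATGcctgatggtagacatcgattcca
Hspd1: CATGagagttcagaagcagcctttctg
Clpx: CATGtgctagactaaataaaatatctt
Timm23: CATGttaattcatttaaaaaatctaaa

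No member passed the threshold in either direction, where 1.67% of all tested genes were called higher and 0.497% lower. Small positive differences were common: 33 of the 40 tested members had a positive fold change (82.5%, against 50.6% of all tested genes), and the median was 0.24 against 0.005 over all tested genes. At an unadjusted p under 0.05, 9 members were higher (Tomm5, Timm10, Hspa9, Timm8a1, Hspd1, Tfam, Phb, Polg and Phb2) and none lower, beside 7.65% of all tested genes higher and 5.92% lower. Their log2 differences lay between 0.31 and 0.73. In 1 member, Tfam, the lowest knockout exceeded the highest control, which held for 0.967% of all tested genes. The 95% interval of the fold change reached beyond a doubling in 10 of the 40 members and below a halving in 1, Tomm34.

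The count of members called depended on the tool and on single libraries. DESeq2 called 6 members higher (Tomm5, Timm10, Timm8a1, Hspa9, Hspd1 and Tfam), where it called 2.32% of its genes higher, and limma voom called none (1.63% of its genes). Without control replicate 7, edgeR called 6 members higher (Tomm5, Timm10, Hspa9, Hspd1, Phb and Polg), beside 2.84% of all genes. Without knockout replicate 6 it called 2 (Tomm5 and Hspa9, beside 1.71%) and without knockout replicate 7 it called 1 (Tomm5, beside 1.3%). Without both control 7 and knockout 4 it called 5 (Timm10, Hspa9, Hspd1, Phb and Polg, beside 2.32%), and after adjustment for a first surrogate variable 8 (Tomm5, Timm10, Timm8a1, Hspa9, Hspd1, Phb, Phb2 and Tfam, beside 3.16%). No setting called a member lower.

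**Figure D1:**
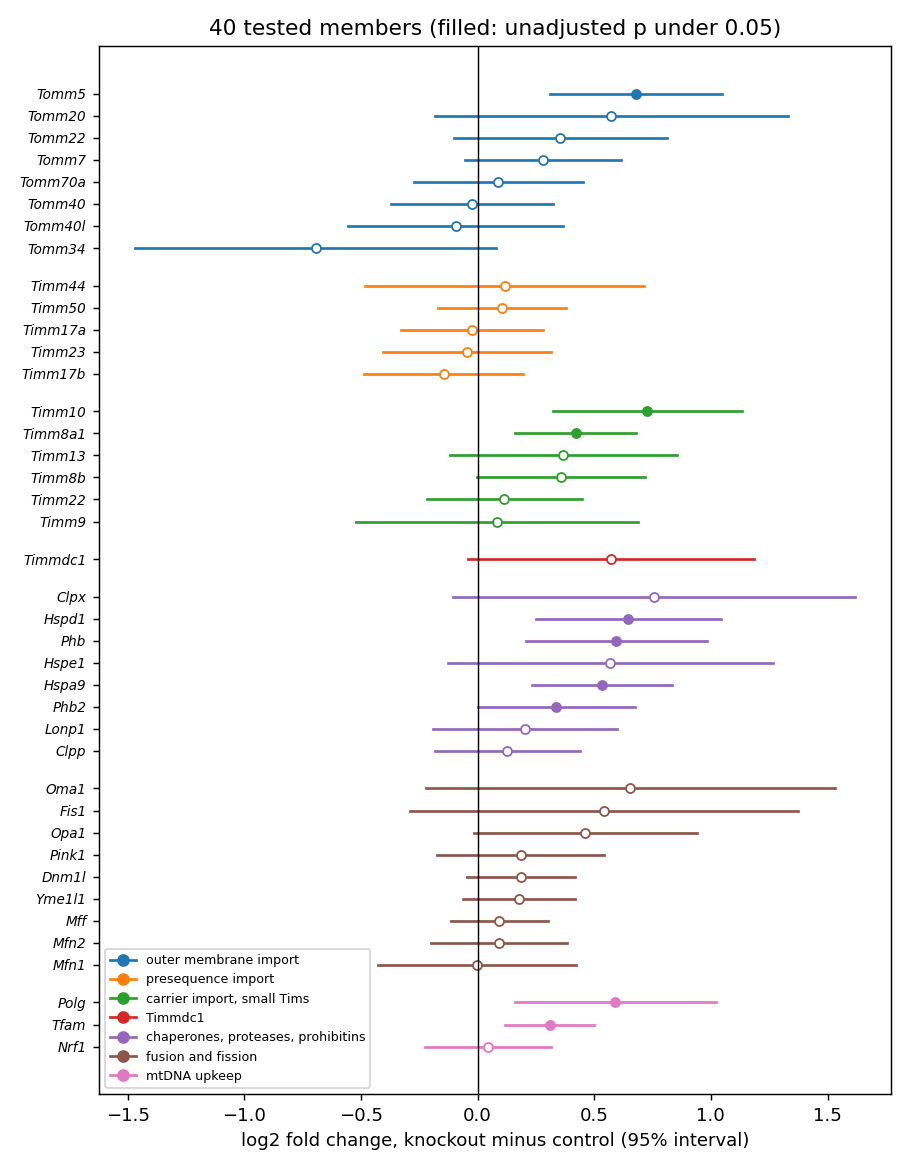
Log2 fold change of the 40 tested members with 95% intervals (horizontal axis, knockout minus control), grouped by role and coloured by group; filled points have an unadjusted p under 0.05. The 9 filled points all lie to the right of 0, and the presequence import genes lie closest to it.

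Of the 8 tested genes of outer membrane import, 5 had positive and 3 negative fold changes, with a median of 0.19. Tomm5, a small subunit that stabilises the pore (chromosome 4, 45105208 to 45108114, GRCm38), stood at 43.8, 72.4 and 83.3 CPM in controls and at 78.0, 108 and 146 CPM in knockouts. The groups overlapped, but 5 of 7 knockouts lay above the highest control and 6 of 8 controls below the lowest knockout. Its log2 difference of 0.68 ± 0.18 had an edgeR adjusted p of 0.0517, and of 23 alternatives 5 placed it past the threshold (range 0.0143 to 0.222). Tomm7, a modulator of the pore and the most abundant gene of this group, stood at 122, 206 and 229 CPM in controls and at 169, 237 and 281 CPM in knockouts (log2 0.28 ± 0.16, edgeR adjusted p = 0.452). The receptors Tomm20 and Tomm22, which bind presequences, had log2 differences of 0.57 ± 0.36 and 0.36 ± 0.22, and Tomm70a, the receptor for carrier proteins, 0.09 ± 0.17. The channel itself, Tomm40, had a difference of -0.02 ± 0.17, with an interval from -0.37 to 0.33, and its relative Tomm40l one of -0.09 ± 0.22. The cytosolic co-chaperone Tomm34 had the largest negative value, with 1.59, 5.39 and 6.60 CPM in controls and 0.429, 3.34 and 4.45 CPM in knockouts (log2 -0.69 ± 0.37, edgeR adjusted p = 0.428). The lowest library of each group for Tomm34 was control 7 and knockout 4.

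Presequence import across the inner membrane showed the smallest differences of the groups with more than 1 gene, with fold changes between -0.14 and 0.12 in its 5 members and a median of -0.02. Timm23, the channel subunit and the most abundant of all members (chromosome 14, 32180162 to 32201898), stood at 444, 837 and 1016 CPM in controls and at 573, 861 and 925 CPM in knockouts. Its difference of -0.05 ± 0.17 has an interval from -0.41 to 0.31 and changed sign with scaling by library size alone (0.02) and with the surrogate variable (0.16). It was also just above 0 when control 4, knockout 4 or knockout 5 was left out (0.01 to 0.02). Timm17a and Timm17b, the alternative partners of the channel, had differences of -0.02 ± 0.14 and -0.14 ± 0.16. The receptor Timm50 had a difference of 0.10 ± 0.13 and Timm44, which anchors the import motor, one of 0.12 ± 0.28. Timm50 was even among libraries, from 6.53 to 10.3 CPM, whereas Timm44 reached 21.4 CPM in control 7 and 23.5 CPM in knockout 4 and lay between 5.51 and 11.4 CPM in the other 13 libraries.

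All 6 genes of carrier import and the small intermembrane-space chaperones had positive fold changes, with a median of 0.36, and 2 of them had an unadjusted p under 0.05. Timm10, which forms the soluble chaperone ring with Timm9 (chromosome 2, 84826997 to 84830213), stood at 9.04, 12.3 and 20.1 CPM in controls and at 16.4, 18.0 and 35.6 CPM in knockouts. The highest values were those of control 7 and knockout 4, and the other 7 controls lay below every knockout. Its log2 difference of 0.73 ± 0.19 had an edgeR adjusted p of 0.0583 (0.00506 to 0.222 over 23 alternatives). Timm8a1, a chaperone of the same family on the X chromosome (134537256 to 134541865), stood at 11.8, 13.8 and 16.7 CPM in controls and at 15.5, 18.0 and 23.7 CPM in knockouts. Of the 7 knockouts 6 lay above the highest control, and control 7 and knockout 4 were not at the ends of their groups (log2 0.42 ± 0.12, edgeR adjusted p = 0.0954). Its relative Timm8b was the most abundant of these genes, at 99.2, 156 and 190 CPM in controls and 138, 172 and 300.1 CPM in knockouts (log2 0.36 ± 0.17, edgeR adjusted p = 0.371). Timm13, the partner of the Timm8 proteins, had a difference of 0.37 ± 0.23 and Timm22, the channel for carriers, 0.12 ± 0.16. Timm9, although it works with Timm10, had a difference of 0.08 ± 0.29, and the difference between these 2 genes was not tested. Timmdc1 belongs by its domain to the family of the Tim17, Tim22 and Tim23 channel proteins but acts in the assembly of respiratory complex I. It stood at 13.3, 21.9 and 43.4 CPM in controls and at 21.0, 33.1 and 83.5 CPM in knockouts (log2 0.57 ± 0.29, edgeR adjusted p = 0.404).

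The matrix chaperones, proteases and prohibitins had the highest median of the groups with more than 1 gene, 0.55, with positive fold changes in all 8 and an unadjusted p under 0.05 in 4. Hspa9, the mitochondrial Hsp70 that drives the import motor, stood at 199, 239 and 313 CPM in controls and at 288, 373 and 501 CPM in knockouts. The controls that overlapped the knockouts were control 3 and control 7, and 4 of 7 knockouts lay above both (log2 0.53 ± 0.14, edgeR adjusted p = 0.0623, and 0.00687 to 0.222 over 23 alternatives). Hspd1, the chaperonin Hsp60 (chromosome 1, 55077835 to 55088243), stood at 44.5, 50.4 and 81.2 CPM in controls and at 61.6, 73.6 and 154 CPM in knockouts. Only control 7 lay among the knockouts, and knockout 4 lay far above the other knockouts (log2 0.65 ± 0.19, edgeR adjusted p = 0.0954). Hspe1, its co-chaperonin Hsp10, lies beside it on the opposite strand (55088132 to 55091307) and stood at 34.6, 53.3 and 168 CPM in controls and at 52.2, 108 and 163 CPM in knockouts. Its highest library was a control, control 7, and its difference of 0.57 ± 0.33 had an edgeR adjusted p of 0.467.

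Phb and Phb2 encode the 2 prohibitins, which form a ring-shaped scaffold in the inner membrane. Phb (chromosome 11, 95666957 to 95680773) stood at 72.3, 97.4 and 171 CPM in controls and at 122, 160 and 221 CPM in knockouts (log2 0.59 ± 0.19, edgeR adjusted p = 0.121). Phb2 stood at 192, 325 and 445 CPM in controls and at 296, 427 and 515 CPM in knockouts (log2 0.34 ± 0.16, edgeR adjusted p = 0.364). The outlying libraries went opposite ways in the pair: control 7 and knockout 4 were the highest of their groups for Phb and the lowest for Phb2. Among the proteases, Clpx, the unfolding subunit, had the largest positive value of all members, 0.76 ± 0.41. Its level was 10.4, 12.8 and 48.9 CPM in controls and 15.1, 23.2 and 87.1 CPM in knockouts, so that the highest control lay above 6 of the 7 knockouts. The difference was 1.14 without control replicate 7 and 0.25 without knockout replicate 4, and neither passed the threshold. Clpp, the proteolytic subunit, had a difference of 0.13 ± 0.15 and the Lon protease Lonp1 one of 0.20 ± 0.19.

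**Figure D2:**
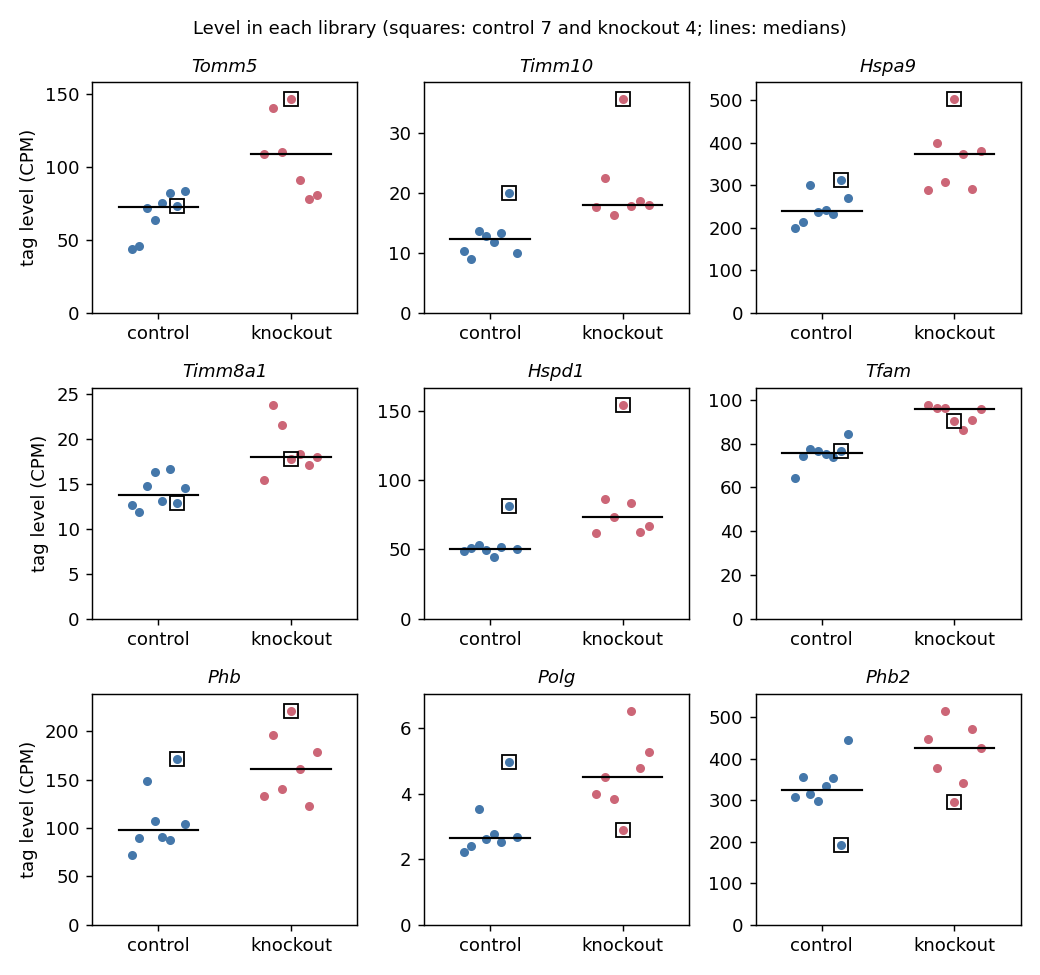
Level of the 9 members with an unadjusted p under 0.05 in each of 8 control and 7 knockout libraries (vertical axis, CPM from 0; points are libraries, lines medians, squares control 7 and knockout 4). For Tfam the knockouts lie at 86.4 CPM and above and the controls at 84.3 CPM and below, and in the other panels the groups overlap.

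Genes of fusion and fission had mostly small differences: 8 of 9 were positive, the median was 0.19 and none had an unadjusted p under 0.05. Opa1, the inner-membrane fusion GTPase and the most abundant of them (chromosome 16, 29579334 to 29654884), stood at 54.0, 189 and 253 CPM in controls and at 184, 258 and 282 CPM in knockouts. Control 7 was far below the other controls, which began at 129 CPM. The log2 difference was 0.46 ± 0.23 (edgeR adjusted p = 0.385), 0.33 without control replicate 7, and 4 of 7 knockouts lay above the highest control. The outer-membrane fusion GTPases Mfn1 and Mfn2 had differences of -0.004 ± 0.20 (interval -0.43 to 0.42) and 0.09 ± 0.14 (interval -0.20 to 0.38). For fission, the dynamin Dnm1l had a difference of 0.19 ± 0.11 and its receptor Mff 0.09 ± 0.10, both with narrow spreads (148 to 231 CPM and 98.4 to 127 CPM over all libraries). The receptor Fis1 ran from 16.6 to 120 CPM, and its difference of 0.54 ± 0.40 could not be separated from that spread. Oma1, a protease that cuts Opa1 under stress, stood at 4.29, 6.03 and 23.6 CPM in controls and at 6.44, 10.6 and 35.8 CPM in knockouts (log2 0.65 ± 0.42, 1.06 without control replicate 7 and 0.21 without knockout replicate 4). Yme1l1, the protease that cuts Opa1 constitutively, had a difference of 0.18 ± 0.11, and Pink1, the kinase that marks damaged mitochondria, 0.19 ± 0.17.

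Tfam packages mitochondrial DNA and starts its transcription, and it was the 1 member whose groups did not overlap. Its level (chromosome 10, 71225464 to 71238280) was 64.2, 75.8 and 84.3 CPM in controls and 86.4, 95.9 and 97.4 CPM in knockouts. Control 7 and knockout 4 lay within the range of the other libraries of their groups. The difference was small, 0.31 ± 0.09 on the log2 scale with an interval from 0.12 to 0.50, and its edgeR adjusted p was 0.0961. DESeq2 gave an adjusted p of 0.00153, and over 23 alternatives the value ran from 0.00153 to 0.351. Polg, the catalytic subunit of the mitochondrial DNA polymerase (chromosome 7, 79446231 to 79466362), stood at 2.24, 2.65 and 4.99 CPM in controls and at 2.91, 4.50 and 6.53 CPM in knockouts. Here control 7 was the highest control and knockout 4 the lowest knockout, and the difference was 0.59 ± 0.21 (edgeR adjusted p = 0.185, and 0.00897 without both of them). Nrf1, a transcription factor for nuclear genes of respiration, had a difference of 0.04 ± 0.13 with an interval from -0.23 to 0.32.

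Promoter windows are shown for Tfam, whose groups did not overlap, for Timm10, which had the smallest p of the small Tim chaperones, and for the shared Hspd1 and Hspe1 start region. RefSeq windows of 300 bases (250 before to 50 after a start, GRCm38.p6) were taken for 38 members, 47 windows in all. Hspa9 was left out of this search. They were searched on both strands for CCGGAAG, a core bound by GABP and other ETS factors, and TCAAGGTCA, the ERR site. The palindromes GAANNTTC, found in heat shock elements, and CACGTG, an E-box, were searched too, as was the NRF1 site, which none of the 3 windows printed here holds. Capitals mark matches, and some overlap. The Hspe1 window (chr1:55087898-55088197, plus strand) shares 285 bases with 1 of the 2 Hspd1 windows on the minus strand. The Tfam window is chr10:71237995-71238294 (minus strand) and the Timm10 window chr2:84826771-84827070 (plus strand).
Hspe1: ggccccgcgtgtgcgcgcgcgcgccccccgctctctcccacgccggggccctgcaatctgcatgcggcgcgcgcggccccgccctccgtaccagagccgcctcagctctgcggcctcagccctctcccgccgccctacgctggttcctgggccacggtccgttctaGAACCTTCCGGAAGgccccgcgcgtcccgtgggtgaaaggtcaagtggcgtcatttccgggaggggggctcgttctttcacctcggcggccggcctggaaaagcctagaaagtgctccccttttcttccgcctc
Tfam: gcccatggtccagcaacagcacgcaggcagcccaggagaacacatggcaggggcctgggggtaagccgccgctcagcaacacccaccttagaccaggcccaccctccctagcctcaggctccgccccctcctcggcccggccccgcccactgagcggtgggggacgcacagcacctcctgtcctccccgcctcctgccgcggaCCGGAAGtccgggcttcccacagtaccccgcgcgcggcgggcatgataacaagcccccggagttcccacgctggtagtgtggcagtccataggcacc
Timm10: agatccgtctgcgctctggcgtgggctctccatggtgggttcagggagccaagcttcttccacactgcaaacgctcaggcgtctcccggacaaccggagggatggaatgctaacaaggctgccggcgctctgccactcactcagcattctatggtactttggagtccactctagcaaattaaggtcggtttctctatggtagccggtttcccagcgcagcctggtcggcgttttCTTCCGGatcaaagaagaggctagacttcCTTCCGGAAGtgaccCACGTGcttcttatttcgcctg
The GABP core was in 19 of the 47 member windows (40.4%) and in 8.86% of all 32851 windows of this length. Some windows overlap, so a site can be counted in more than 1 window. The heat shock palindrome was in 3 member windows (6.4%, against 7.86% of all), those of Hspd1, Hspe1 and Timm9. The Hspd1 and Hspe1 matches are the same bases on opposite strands. The NRF1 site was in 7 member windows (14.9%, against 4.6% of all), those of Hspd1, Oma1, Opa1, Phb, Pink1, Timm8b and Tomm20. The E-box was in 7 (14.9%, against 7.15%) and the ERR site in 1 (2.1%, against 0.42%), that of Timm8b. These matches describe letters and were not tested against the fold changes. Among the 17 members with the GABP core, Timm23, Mfn1 and Tomm34 had negative fold changes, beside 7 negative values among all 40 tested members. The median was 0.34 in members with this core and 0.15 in the other members with windows. The gap was wider for the NRF1 site (0.574 against 0.153), the E-box (0.574 against 0.182) and the heat shock palindrome (0.569 against 0.195). Timm8b, with the ERR site, had 0.358, against a median of 0.195 in the others. None of these differences was tested.

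The libraries that stood apart did so in many members at once. Control 7 and knockout 4 were both the highest library of their group in 14 of the 40 tested members (Tomm20, Timm44, Timm10, Timm13, Timm8b, Timm9, Clpx, Hspa9, Hspd1, Hspe1, Phb, Fis1, Oma1 and Yme1l1). They were both the lowest in 6 (Tomm34, Tomm70a, Timm23, Clpp, Phb2 and Mfn1). The same counts were not made over all tested genes, where both libraries also led their groups on the leading principal component. The highest library held over 5 times the lowest in 7 members (Tomm20, Tomm34, Timmdc1, Clpx, Fis1, Oma1 and Opa1). It held less than 2 times the lowest in 8 (Timm17a, Timm50, Clpp, Dnm1l, Mff, Yme1l1, Nrf1 and Tfam). Over the 40 members, the median deviation from the control mean ran from -0.22 (control 1) to 0.19 (control 7) in controls and from 0.14 (knockout 1) to 0.42 (knockout 2) in knockouts. Across 39 members the deviation in knockout 4 had Spearman correlations of -0.28 with transcript length, -0.33 with the distance of the predicted tag from the 3' end and -0.16 with its GC content. In control 7 they were -0.23, -0.09 and -0.23. The points of each correlation share 1 library.

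**Figure D3:**
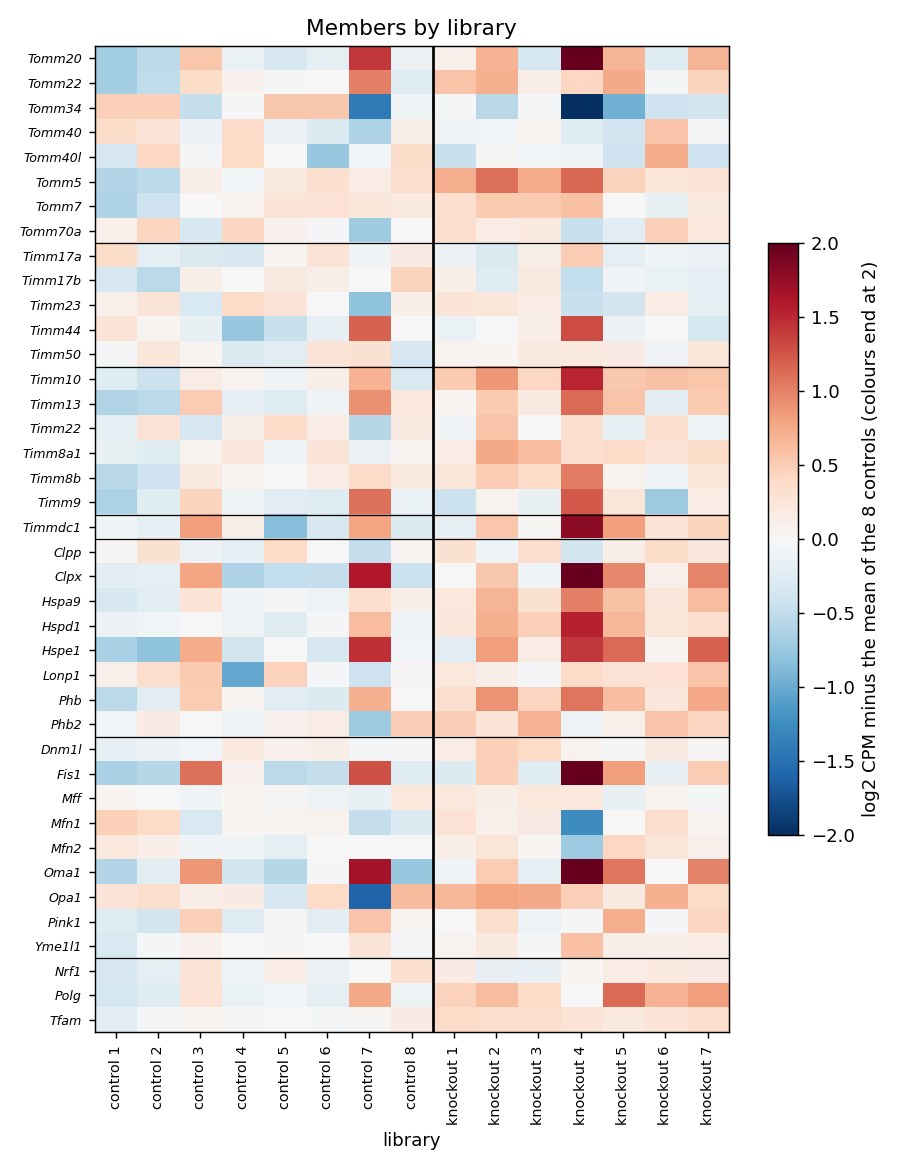
Deviation of log2 CPM from the mean of the 8 controls for the 40 tested members (rows, by role, separated by lines) in 15 libraries (columns, controls left of the line). Control 7 and knockout 4 carry the darkest cells in both directions, whereas the Tfam row is even within each group.

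Slow fibres hold more mitochondria than fast fibres, and their markers were measured beside these results. The summed level of 6 slow-fibre markers ran from 495.5 to 1079 CPM in controls (median 681.1) and from 977.8 to 1474 CPM in knockouts (median 1243), and 1 of the 6, the calcium pump Atp2a2, was called higher. The ranges of the sum overlapped, and the sum was not tested. None of these 6 was at 0, and their part in the member differences was not tested. In a bulk sample, more fibres of a type and more RNA per fibre cannot be told apart. Summed fibroblast markers (5 of 5 present, none at 0) ran from 2136 to 3803 CPM in controls and from 1194 to 3046 CPM in knockouts, with none called. Of the adipocyte markers Lep was called lower and the sum ran from 862.6 to 1167 CPM in controls and from 904.5 to 1642 CPM in knockouts.

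Other genes of the same pathways gave 4 calls, all higher, among 88 tested, beside 1.67% of all tested genes. Without the oxidative phosphorylation genes listed as a reference, 2 of 75 were called. Of 11 genes of outer-membrane sorting and cristae organisation 1 rose, Mtx2, a metaxin of the outer membrane, from 187 ± 29.2 to 281 ± 54.4 CPM (SD, 8 and 7 libraries; log2 0.59 ± 0.14, edgeR adjusted p = 0.0351). Of 15 further genes of mitochondrial DNA upkeep and transcription 1 rose, Mterfd3, a member of the transcription termination factor family, from 15.3 ± 1.51 to 22.6 ± 1.86 CPM (log2 0.56 ± 0.10, edgeR adjusted p = 0.00452). As with Tfam, the groups did not overlap for Mterfd3. No call was made among 18 genes of the import motor, presequence processing and intermembrane-space oxidation, where Grpel1, the nucleotide exchange factor of Hspa9, came closest (log2 0.51 ± 0.14, edgeR adjusted p = 0.0681). None was called among 17 further genes of fission, fusion and mitophagy, with a median of 0.06. Among 14 genes of quality control and mitochondrial stress none was called. There the inner-membrane protease subunit Afg3l2 had a difference of 0.43 ± 0.12 with no overlap between the groups (edgeR adjusted p = 0.0761), and the stress transcription factors Atf4 and Atf5 had negative values, -0.35 ± 0.13 and -0.42 ± 0.18 (edgeR adjusted p = 0.246 and 0.305). Of 13 genes of the respiratory chain, ATP synthase and citrate synthase listed as a reference all had positive fold changes, with a median of 0.52, and 2 rose, Sdhb (log2 0.82 ± 0.18, edgeR adjusted p = 0.0199) and Uqcrc2 (0.57 ± 0.14, edgeR adjusted p = 0.0318). Of 23 alternatives, 11 lost the call of Mtx2, 9 that of Uqcrc2, 4 that of Sdhb and 1 that of Mterfd3. Leaving out control 7 turned the 4 calls into 14, beside 2.84% of all genes. With knockout 2 left out 1 call was made, and with control 1, control 2, control 6, knockout 3 or knockout 7 left out in turn, 2.

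**Figure D4:**
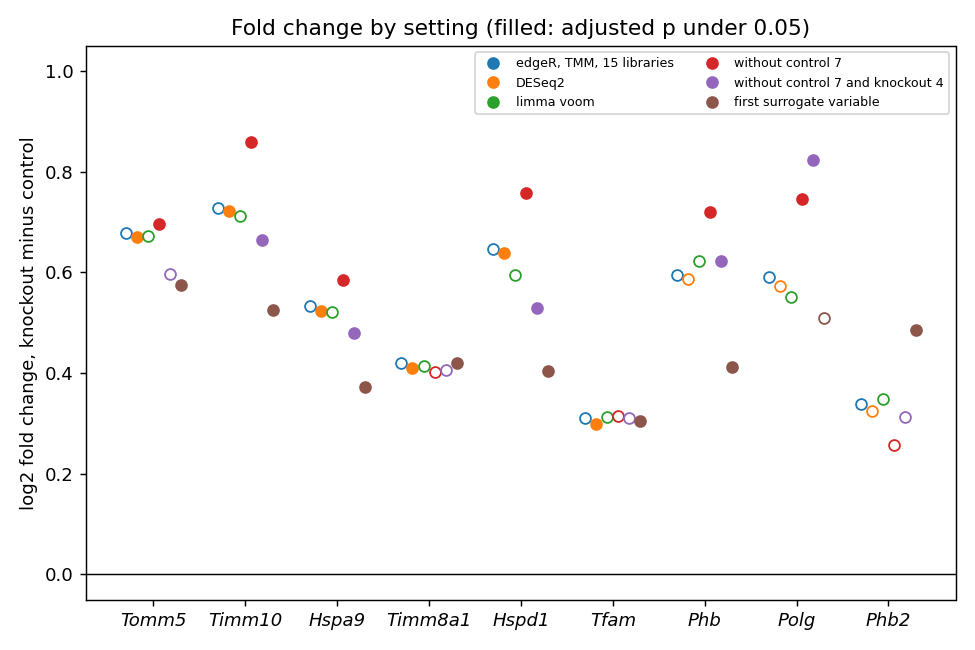
Log2 fold change of the same 9 members under 6 settings (vertical axis; filled points have an adjusted p under 0.05 over all genes of that setting). Every point lies above 0. With all 15 libraries, the values of edgeR without the surrogate variable and those of voom are open.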

How the data were processed

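Gastrocnemius RNA of 8 control and 7 knockout mice was profiled with SOLiD SAGE, per the labels' protocols. The authors deposited raw tag counts per gene symbol and a second table of normalized signal, which equals the counts divided by 1 factor per library. The submitters' processing notes name mm10, GRCm38.p1 and DESeq2; aligner and annotation are not given in the sources used here. Of the count rows, the 360 rows without a symbol hold no values and were dropped. Genes passing filterByExpr (minimum count 10; 11062 of 13602) were fitted with edgeR 4.0.16 (TMM scaling, quasi-likelihood test, Benjamini-Hochberg adjustment). The biological coefficient of variation was 0.291. Alternatives used DESeq2 1.42.0, limma voom 3.58.1, sva 3.50.0, other scalings, no filter, a replicate block and left-out libraries. The fit was also run on simulated counts with independent genes and no outlying library, a setting that does not cover libraries such as control 7 and knockout 4. Named with values were Cpt1b, in each role group the member with the smallest p, the largest change and the highest level, and called genes of the wider lists; others were added after their values were seen. Members and lists were chosen with earlier results of these data known. P-values measure the spread between these libraries, and no 2 libraries of the same group agreed within sampling noise.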

Additional observations from a re-analysis of the deposited data

Results flagged for a closer look

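A library stood far from the rest of its group in 21 of 104 groups tested, those of the 40 tested members and 12 other genes given in the text. Independent, normally distributed values would give about 1 in 20. The groups share the same 15 libraries, so this rate does not measure chance here. In each case the gap to the next library was above the critical share of the group's range, and 19 of the 21 cases were control 7 or knockout 4.

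Control 7 stood above the next control for Tomm20 (131 against 71.6 CPM), Timm44 (21.4 against 11.4 CPM), Timm10 (20.1 against 13.7 CPM), Timm9 (16.6 against 10.4 CPM), Clpx (48.9 against 27.9 CPM) and Hspd1 (81.2 against 53.0 CPM). Knockout 4 stood above the next knockout for the same 6 genes, at 205 against 79.2 CPM for Tomm20, 23.5 against 10.3 CPM for Timm44 and 35.6 against 22.4 CPM for Timm10. For Timm9 it had 18.1 against 9.02 CPM, for Clpx 87.1 against 31.9 CPM and for Hspd1 154 against 86.3 CPM.

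Knockout 4 alone stood high for Timm8b (300.0 against 206 CPM), Timmdc1 (83.5 against 42.9 CPM), Fis1 (120 against 47.1 CPM), Oma1 (35.8 against 15.7 CPM) and Yme1l1 (44.4 against 33.9 CPM). It stood low for the mitofusins Mfn1 (18.1 against 44.0 CPM) and Mfn2 (68.8 against 117 CPM). Knockout 6 stood high for the channel gene Tomm40 (129 against 90.9 CPM) and its relative Tomm40l (6.46 against 3.85 CPM).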

How the results depend on the processing

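Over the 20 genes named by rule and their alternatives, 407 fold changes kept direction and side of the threshold, 23 passed it, 25 lost it and 5 reversed, all for Timm23. Of the 40 tested members, 33 had the same sign in every alternative run. The other 7 were Tomm40, Timm17a, Timm23, Timm44, Timm9, Mfn1 and Fis1, the last changing only with the surrogate variable (-0.04). Members called higher numbered 0 in the edgeR result with all libraries, 6 with DESeq2, 5 without control 7 and knockout 4, 8 with the surrogate variable and 0 to 6 when 1 library was left out. Wider-list genes called higher numbered 4, and 10, 9, 12 and 1 to 14 under the same alternatives. All genes called higher numbered 185, and 310 with DESeq2, 350 with the surrogate variable and 131 to 311 with 1 library left out. Genes called lower numbered 55, and 145, 143 and 30 to 154 under these, and 148 without control 7 and knockout 4. Cpt1b passed the threshold with DESeq2 (-1.03), without both libraries (-0.94) and with the surrogate variable (-0.79), and ran from -1.20 to -0.86 with 1 library left out, passing without control replicate 7 (-1.11, edgeR adjusted p = 0.0487). Timm23 reversed to 0.017 with library size alone and 0.16 with the surrogate variable, and ran from -0.13 to 0.016 with 1 library left out. The cause of these changes was not tested.

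The groups share replicate numbers, but same-numbered libraries did not deviate together (correlations from -0.45 to 0.31), and only knockout 7 correlated best with its own number. With a replicate block, members called higher numbered 0 (0.886% of all genes), wider-list genes 0, and all genes 98 higher and 19 lower. The block ended the calls of Mterfd3, Sdhb, Uqcrc2 and Mtx2 (edgeR adjusted p = 0.117, 0.0577, 0.178 and 0.223). Polg and Tomm34, both low members, were under 7 CPM in every library, with standard errors of 0.21 and 0.37. The part of depth in these errors was not tested.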
